A study of Homo sapiens with 12 samples.

Results

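Gluconeogenesis is the route by which liver makes glucose from lactate, alanine, other amino acids and glycerol. Pyruvate carboxylase and phosphoenolpyruvate carboxykinase bypass the pyruvate kinase step of glycolysis, fructose-1,6-bisphosphatase bypasses phosphofructokinase, and glucose-6-phosphatase, fed by a transporter in the membrane of the endoplasmic reticulum, releases free glucose. Fasting hormones raise transcription of several of these genes through CREB, PGC-1alpha, the glucocorticoid receptor and FOXO1, and insulin lowers it. The 9 genes described here are a set named by their roles as enzymes and regulators: the mitochondrial carboxylase PC, the cytosolic and mitochondrial carboxykinases PCK1 and PCK2, the bisphosphatase FBP1, the phosphatase G6PC1 with its transporter SLC37A4, the regulators PPARGC1A (PGC-1alpha) and FOXO1, and the tyrosine aminotransferase TAT. They were 9 of the 35810 genes to which the quantified transcripts were summed, and 8 of the 9 passed the filter on low counts that left 12821 genes for testing.

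The RNA was polyadenylated RNA of HepG2, a human liver tumour line that keeps many hepatocyte functions, sequenced in 12 libraries of 4 groups with 3 biological replicates each. The groups were ARID1B-KO cells given 5 µM sorafenib for 48 h, ARID1B-KO cells given DMSO vehicle at 0.1% v/v, WT cells given 5 µM sorafenib for 48 h and WT cells given DMSO. The knockout was made with CRISPR/Cas9 in the gene of a BAF subunit, part of a complex that remodels chromatin. Sorafenib inhibits RAF and several receptor tyrosine kinases. The number of knockout clones behind the libraries is not known from the labels, so a difference between genotypes and a difference between clones cannot be told apart. All groups were grown in DMEM with serum, and the labels do not give the glucose or hormone content of that medium.

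The libraries held 19739582 to 29398257 estimated counts, of which 6.55% to 11.9% were from mitochondrial genes. ARID1B itself lay at 35.6, 25.9 and 26.5 CPM (counts scaled by the normalised library total, in edgeR's usual unit) in ARID1B-KO with sorafenib, against 67.5, 69.1 and 62.3 CPM in WT with sorafenib. With DMSO it lay at 26.4, 27.99 and 27.6 CPM in ARID1B-KO, against 58.4, 61.9 and 66.7 CPM in WT. Its RNA was thus lower in every knockout library and not absent (log2 fold change -1.18 ± 0.11 with sorafenib and -1.19 ± 0.11 with DMSO, ± SE, adjusted p = 8.89e-06 and 7.44e-06). Hepatocyte genes were abundant in every library, with ALB at 30870 TPM or more (a level corrected for transcript length) and AFP between 19250 and 31720 TPM. Among markers of other cells, COL1A2 and DCN of fibroblasts and PTPRC of leukocytes were at 0, and KRT7 of bile duct cells reached at most 0.411 TPM. CD3E, also of leukocytes, reached at most 0.0868 TPM. Some other markers of those lists were present in every library. KRT19 and SOX9 of bile duct cells lay at 40.6 to 83.9 TPM and 18.2 to 28.3 TPM, and CD68 of macrophages at 10.9 to 24.9 TPM. PDGFRB of the fibroblast list lay at 0.108 to 7.616 TPM, with a lower mean with sorafenib than with DMSO in both genotypes. COL1A1 of that list reached at most 0.1943 TPM. Of the endothelial markers, CDH5 lay at 0.174 to 1.415 TPM, and VWF and PECAM1 reached at most 1.585 and 0.5925 TPM. LYZ averaged 584 TPM with sorafenib against 2512 TPM with DMSO in ARID1B-KO, and 1052 against 4676 TPM in WT. Between genotypes, FGB averaged 222 TPM in ARID1B-KO against 3483 TPM in WT with sorafenib, and GPC3 28.5 against 738 TPM. The part of these shifts in the results below was not tested. In bulk RNA, fewer cells that express a gene and less RNA per cell cannot be told apart.

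Every adjusted p is from edgeR's quasi-likelihood test on all 12 libraries, with Benjamini-Hochberg adjustment across the 12821 tested genes, and a gene is said to have risen or fallen at an adjusted p under 0.05. Changes are given as log2 fold changes ± SE, and CPM serve to compare a gene between libraries, whereas TPM serve to compare genes with each other. Gene positions are those of GENCODE 44 on GRCh38.

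The mitochondrial carboxykinase PCK2 was by far the most abundant of the 9 genes per length, and FBP1 was the one not expressed. PCK2 averaged 190.2 ± 28 TPM in ARID1B-KO with sorafenib, 158 ± 11 TPM in ARID1B-KO with DMSO, 174 ± 22 TPM in WT with sorafenib and 150.4 ± 38 TPM in WT with DMSO (SD, n = 3 each). SLC37A4 came next in all 4 groups, at 18.04 ± 1.7, 21.1 ± 0.78, 18.2 ± 1.5 and 21.8 ± 5.2 TPM in the same order of groups, and its SD reached that of the next gene only in WT with sorafenib. PC (10.9, 7.11, 16.2 and 9.06 TPM) and PPARGC1A (12, 7.69, 9.12 and 8.58 TPM) shared the next places. They differed by more than their SDs only in WT with sorafenib, where PC was at 16.2 ± 0.68 TPM and PPARGC1A at 9.12 ± 1.8 TPM. The lower ranks depended on treatment. PCK1 averaged 7.54 ± 2.7 TPM in ARID1B-KO and 6.91 ± 0.96 TPM in WT with sorafenib, above the means of G6PC1, TAT and FOXO1 in both genotypes, although its SD in ARID1B-KO reached that of G6PC1 (4.69 ± 0.56 TPM). With DMSO it averaged 2.64 ± 0.53 TPM in ARID1B-KO and 2.38 ± 1.4 TPM in WT, and there its SD reached into that of G6PC1 (2.11 ± 0.89 TPM in ARID1B-KO and 2.28 ± 0.33 TPM in WT). FOXO1 had the highest mean of those 4 genes with DMSO, at 3.49 ± 0.22 TPM in ARID1B-KO, where its SD met that of TAT (3.13 ± 0.22 TPM), and at 3.37 ± 0.54 TPM in WT, where its SD met that of PCK1 (2.38 ± 1.4 TPM), so its place was not separated from that of the next gene in either genotype.

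**Figure D1:**
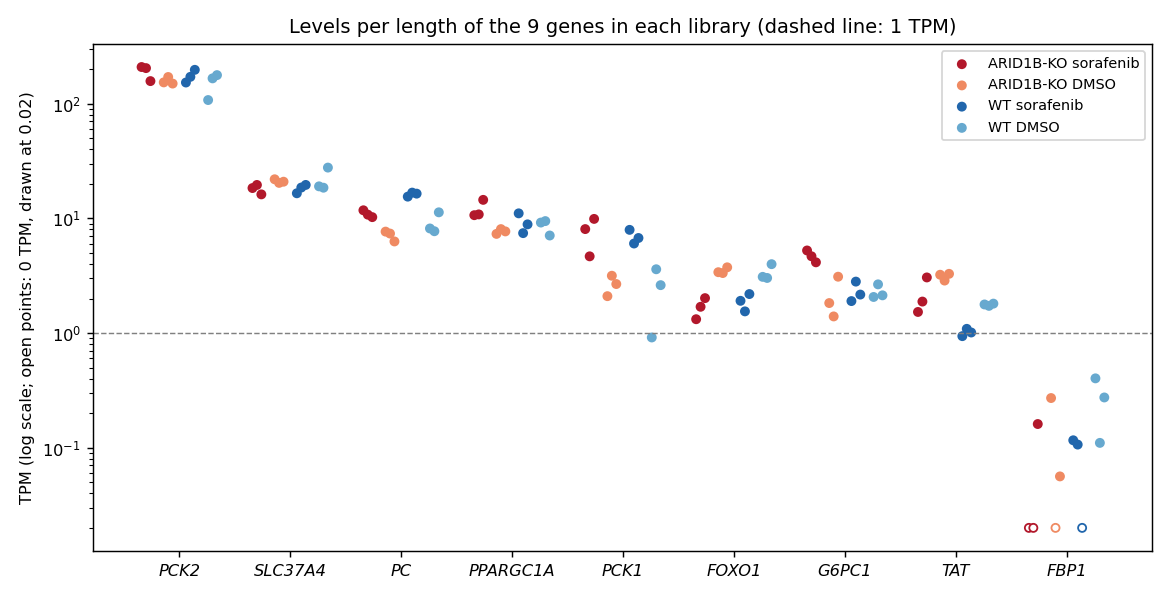
TPM of the 9 genes in each of the 12 libraries on a log scale, in order of level, with colours for the 4 groups and open points for libraries at 0 TPM. PCK2 lies above 100 TPM in every library, and FBP1 lies below the dashed line at 1 TPM in every library.

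FBP1, which removes a phosphate from fructose-1,6-bisphosphate and whose RNA is known to be low in many liver cancers, was taken as not expressed because its mean stayed under 1 TPM in all 4 groups. The gene (ENSG00000165140) lies on the minus strand at chr9:94603133-94640249. It had 0, 0 and 3 estimated counts in the ARID1B-KO sorafenib libraries, 5, 0 and 1 in ARID1B-KO with DMSO, 3, 2 and 0 in WT with sorafenib and 11, 2 and 6 in WT with DMSO. The 3 WT DMSO libraries together held 19 counts (exact 95% Poisson interval 11.4 to 29.7), and the other groups 3, 6 and 5. These intervals cover counting error only. FBP1 did not pass the filter on low counts. In the fit without that filter, its log2 change with sorafenib was -0.93 ± 1.43 in ARID1B-KO and -1.71 ± 1.26 in WT (edgeR adjusted p = 0.696 and 0.407). Between genotypes it was -0.49 ± 1.45 with sorafenib and -1.27 ± 1.24 with DMSO (edgeR adjusted p = 0.905 and 0.565), with errors too wide at this depth to detect a change of 2 times. The second bisphosphatase gene, FBP2, did not stand in for it: its sums were 1 count in ARID1B-KO with sorafenib, 0 in ARID1B-KO with DMSO, 2 in WT with sorafenib and 1 in WT with DMSO. G6PC2, a phosphatase gene of pancreatic islets, had 0 counts in all 12 libraries, for which the exact interval allows up to 3.69 counts in a group. G6PC3, another gene of that phosphatase family, averaged 46.9 TPM with sorafenib and 57.1 TPM with DMSO in ARID1B-KO. In WT it averaged 60.8 and 71.9 TPM. These means were above those of G6PC1 in all 4 groups. The 8 genes of the set other than FBP1 reached a mean of 1 TPM in all 4 groups, and lowering the limit to 0.5 TPM left their number at 8.

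Sorafenib was associated with higher RNA of the enzymes at the entry of the pathway and of PPARGC1A, and with lower FOXO1, in both genotypes. In ARID1B-KO, 5 of the 8 tested genes rose (PCK1, G6PC1, PC, PPARGC1A and PCK2), 1 fell (FOXO1) and 2 did not pass the test. Over all tested genes, 23.0% rose and 23.7% fell in that comparison. In WT, 4 rose (PCK1, PC, PCK2 and PPARGC1A), 2 fell (TAT and FOXO1) and 2 did not pass, against 17.5% and 18.0% of all tested genes. The rises of PCK2 in both genotypes and of PPARGC1A in WT depended on the fit. Their calls were lost in a fit corrected for transcript length and with limma on TPM. The median log2 fold change of the 8 genes was 0.64 in ARID1B-KO, where that of all genes was 0.01, and 0.15 in WT, where that of all genes was -0.01. Between genotypes, 5 passed with sorafenib and 2 with DMSO. With sorafenib, G6PC1, PPARGC1A and TAT were higher and PC and FOXO1 lower in ARID1B-KO than in WT (13.2% of all genes higher and 13.8% lower). With DMSO, TAT was higher and PC lower, and 6 did not pass (14.3% of all genes higher and 13.5% lower). With limma on TPM the calls over all genes were split less evenly, with 1436 higher and 2677 lower for sorafenib in ARID1B-KO (2947 and 3035 in edgeR) and 1219 higher and 774 lower for genotype with DMSO (1829 and 1734 in edgeR). The sorafenib comparisons share no libraries with each other, but each shares its libraries with the genotype comparisons.

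**Figure D2:**
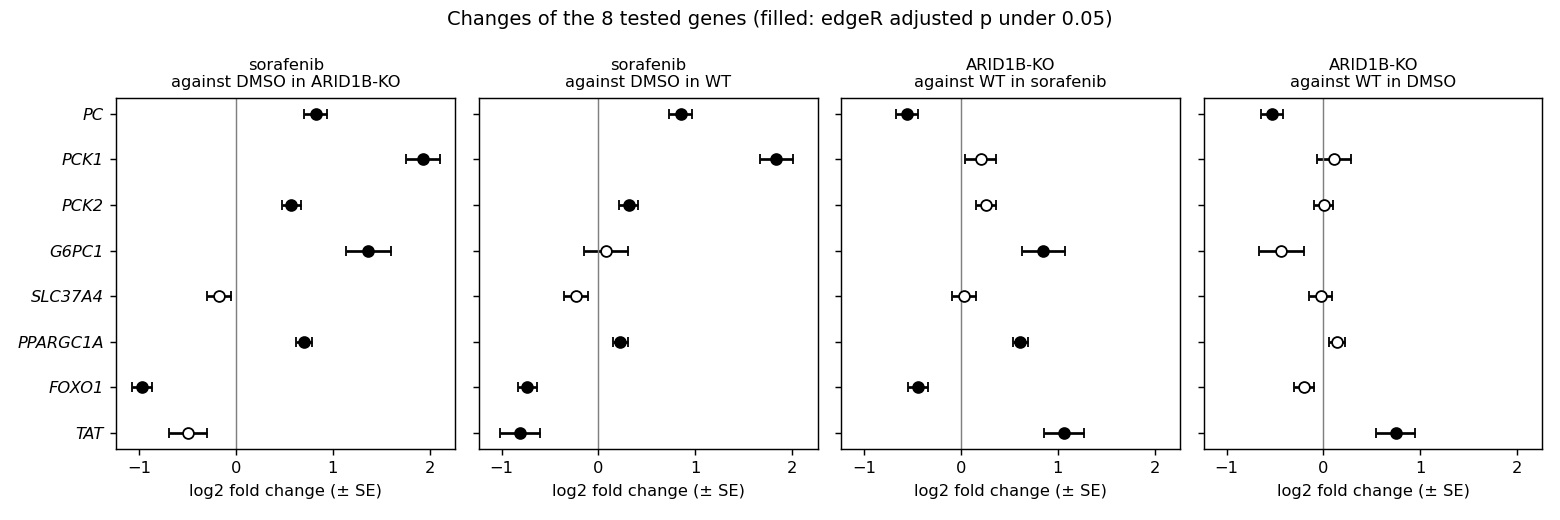
Log2 fold changes (horizontal axis, ± SE) of the 8 tested genes in 4 comparisons, with filled points at an adjusted p under 0.05. PCK1 has the largest rise with sorafenib in both genotypes, and G6PC1 rises in ARID1B-KO while its point in WT lies near 0.

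PC (ENSG00000173599, minus strand, chr11:66848417-66958386) encodes the enzyme that carboxylates pyruvate to oxaloacetate in mitochondria, the first committed step from lactate and alanine. In ARID1B-KO it was at 97.0, 82.6 and 73.4 CPM with sorafenib, against 53.3, 47.2 and 42.6 CPM with DMSO. In WT it was at 119.8, 129 and 122.7 CPM with sorafenib, against 62.4, 66.8 and 77.3 CPM with DMSO. Sorafenib libraries were above DMSO libraries in each genotype, and knockout libraries were below WT libraries under each treatment, with no overlap. The rise with sorafenib was 0.82 ± 0.12 in ARID1B-KO (1.77-fold, adjusted p = 9.55e-05) and 0.85 ± 0.12 in WT (1.80-fold, adjusted p = 0.000111). The knockout had less PC RNA by a similar amount under both treatments, with log2 fold changes of -0.55 ± 0.12 with sorafenib (adjusted p = 0.00336) and -0.53 ± 0.12 with DMSO (adjusted p = 0.00481). A fit that also corrected each gene for its mean transcript length per library kept the direction of the DMSO difference at -0.41 but ended its call (adjusted p = 0.083). PC overlaps LRFN4 on the opposite strand over 3829 bases, and LRFN4 had 47 to 277 counts per library. No source used here says whether the quantification used strand.

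PCK1, the cytosolic carboxykinase and a classic target of glucagon, cAMP and glucocorticoids, had the largest rise with sorafenib of the 8 tested genes in both genotypes. The gene (ENSG00000124253) lies on the plus strand at chr20:57561080-57568121. It was at 17.1, 15.2 and 21.3 CPM with sorafenib in ARID1B-KO, against 4.09, 4.09 and 5.92 CPM with DMSO. WT cells had 16.9, 13.9 and 15.8 CPM with sorafenib, against 4.66, 3.93 and 4.42 CPM with DMSO. The lowest sorafenib library, at 13.9 CPM, was more than 2 times the highest DMSO library. The change was 1.93 ± 0.17 in ARID1B-KO (3.81-fold, adjusted p = 2.19e-06) and 1.84 ± 0.17 in WT (3.57-fold, adjusted p = 5.03e-06). Genotypes overlapped under both treatments, with differences of 0.20 ± 0.16 with sorafenib (adjusted p = 0.388) and 0.11 ± 0.18 with DMSO (adjusted p = 0.677).

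The transcript mixture of PCK1 bears on its level in TPM. Annotated retained-intron transcripts held 66.2% of its mean TPM in ARID1B-KO with sorafenib, 67.5% in ARID1B-KO with DMSO, 68.6% in WT with sorafenib and 72.1% in WT with DMSO. Single libraries varied widely: the share ran from 51.6% to 72.7% in ARID1B-KO with sorafenib, from 57.0% to 77.2% in ARID1B-KO with DMSO and from 65.3% to 71.9% in WT with sorafenib. In WT with DMSO it was 13.1%, 85.7% and 74.1% in replicates 1, 2 and 3, and replicate 1 had 0 counts on PCK1-205. That transcript, which leads by mean TPM, is 581 bases long, whereas the canonical coding transcript PCK1-201 has 4320 bases. By counts, which are not corrected for length, PCK1-201 held the larger share in every library, between 64.8% and 86.5%. Over the protein-coding transcripts alone, a count chosen after seeing these shares, PCK1 still rose by 1.72 in ARID1B-KO (adjusted p = 8.81e-05) and by 1.76 in WT (adjusted p = 0.000113).

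**Figure D3:**
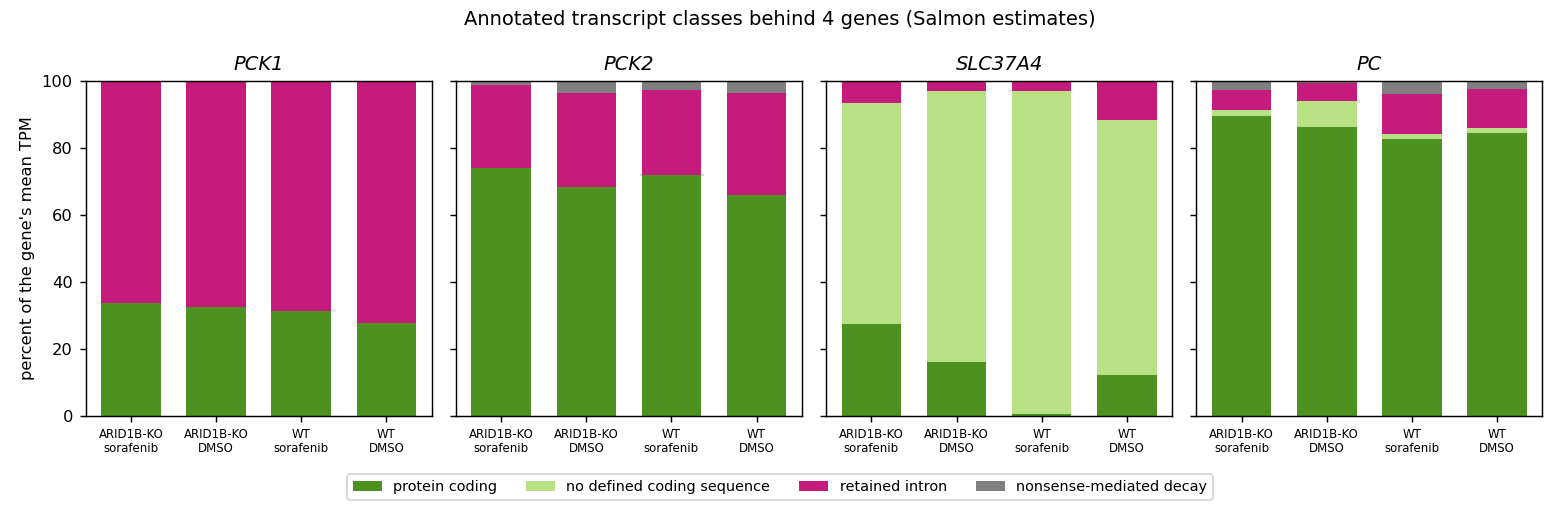
Percent of the mean TPM of 4 genes (vertical axis, 0 to 100) assigned by Salmon to each annotated transcript class, in the 4 groups. Retained-intron transcripts hold 66.2% to 72.1% of the mean PCK1 TPM by group, although 13.1% in 1 WT DMSO library, and transcripts without a defined coding sequence hold most of the mean SLC37A4 TPM.

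PCK2 makes phosphoenolpyruvate inside mitochondria and is also known as a target of the amino acid stress factor ATF4. The gene (ENSG00000100889, plus strand, chr14:24094053-24110598) lies wholly within NRL on the opposite strand, which had 108 to 158 counts per library. PCK2 was at 444, 425 and 379 CPM with sorafenib in ARID1B-KO, against 304.5, 271 and 264 CPM with DMSO. WT cells had 333.5, 355.5 and 354 CPM with sorafenib, against 250.4, 293 and 296 CPM with DMSO. The treatments did not overlap in either genotype, although the steps were small. The rise was 0.57 ± 0.10 in ARID1B-KO (1.49-fold, adjusted p = 0.000456) and 0.31 ± 0.10 in WT (1.24-fold, adjusted p = 0.0252). With sorafenib all knockout libraries were above all WT libraries, yet the difference of 0.26 ± 0.10 did not pass (adjusted p = 0.0700), and with DMSO the difference was 0.00 ± 0.10. The WT call was lost without WT DMSO replicate 1 (adjusted p = 0.0967), WT sorafenib replicate 2 (0.0740) or WT sorafenib replicate 3 (0.0747). The length-corrected fit ended both sorafenib calls, at 0.40 in ARID1B-KO (adjusted p = 0.112) and 0.27 in WT (adjusted p = 0.327).

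G6PC1 hydrolyses glucose-6-phosphate to glucose, the last step of the pathway, and its gene (ENSG00000131482) lies on the plus strand at chr17:42900797-42914438. In ARID1B-KO it was at 14.6, 7.25 and 9.73 CPM with sorafenib, against 4.90, 3.37 and 3.99 CPM with DMSO. WT cells had 5.20, 6.51 and 5.82 CPM with sorafenib, against 5.58, 6.04 and 4.98 CPM with DMSO. The 3 knockout sorafenib libraries were above the other 9, with a spread of 2 times among themselves, and the WT treatments overlapped. The change with sorafenib was 1.37 ± 0.23 in ARID1B-KO (2.58-fold, adjusted p = 0.000367) and 0.08 ± 0.23 in WT (adjusted p = 0.824). With sorafenib the knockout was higher than WT by 0.85 ± 0.23 (1.80-fold, adjusted p = 0.0137). That call was lost without ARID1B-KO sorafenib replicate 1, the highest library, where the difference was 0.54 (adjusted p = 0.0643), and without WT sorafenib replicate 1 (0.77, adjusted p = 0.0569). With DMSO all knockout libraries were below all WT libraries, with a difference of -0.44 ± 0.23 that did not pass (adjusted p = 0.182).

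The sequence just before the start of G6PC1 is shown because all of the TPM assigned to the gene came from transcripts starting within 50 bases of this start. It is the plus strand at chr17:42900549-42900798 (GRCh38.p14, RefSeq), 5′ to 3′, with the letters GTTAAT of an HNF1 site in capitals, beginning at base -226 from the start.
G6PC1: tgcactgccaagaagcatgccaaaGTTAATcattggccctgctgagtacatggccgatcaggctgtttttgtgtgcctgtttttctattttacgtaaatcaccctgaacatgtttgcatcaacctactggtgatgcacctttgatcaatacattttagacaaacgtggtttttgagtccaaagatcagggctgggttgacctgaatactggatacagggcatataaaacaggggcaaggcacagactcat
Windows of 300 bases, 250 before and 50 after each start, were searched on both strands for 5 short motifs. GTTAAT occurred in 6.88% of 35116 RefSeq promoters. The letters TGACG (cAMP response element core, 24.6%), GTAAACA (FOXO, 3.42%), TTGCAAT (C/EBP, 1.95%) and CAAAGTC (HNF4, 3.37%) were not found in this window, so no motif overlapped the HNF1 match. A match of letters is a description and not a measured site.

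**Figure D4:**
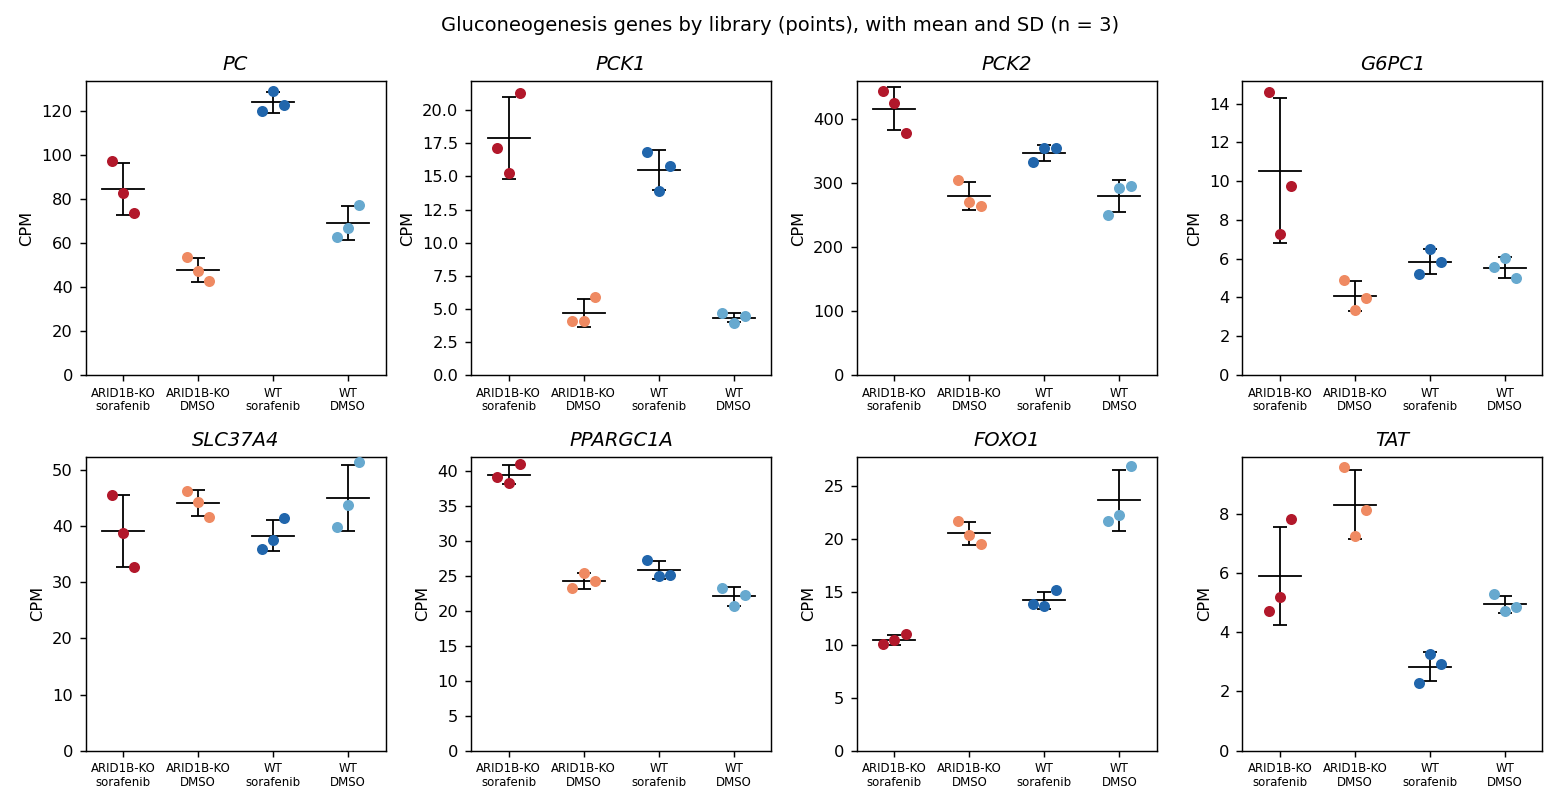
CPM (vertical axis, from 0) of the 8 tested genes in each library (points), with the group mean and SD (n = 3) as lines. G6PC1 at 7.25 to 14.6 CPM in ARID1B-KO with sorafenib lies above all other libraries, whereas PCK1 rises in both genotypes.

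SLC37A4 (ENSG00000137700, minus strand, chr11:119023751-119030906) carries glucose-6-phosphate to the phosphatase. It was at 45.7, 38.9 and 32.8 CPM with sorafenib in ARID1B-KO, against 46.3, 44.4 and 41.7 CPM with DMSO. The WT libraries had 36.0, 37.6 and 41.4 CPM with sorafenib, against 39.9, 43.8 and 51.5 CPM with DMSO. The groups overlapped in each of the 4 comparisons, and none passed: the log2 fold change with sorafenib was -0.17 ± 0.12 in ARID1B-KO (adjusted p = 0.270) and -0.23 ± 0.12 in WT (adjusted p = 0.162). Differences between genotypes were 0.03 ± 0.12 with sorafenib and -0.03 ± 0.12 with DMSO. Transcripts without a defined coding sequence held 66.1% to 96.4% of its mean TPM by group, led by SLC37A4-210. The canonical coding transcript SLC37A4-201 took between 0% and 71.5% of the counts, with 0 counts in 5 libraries spread over all 4 groups, so its protein-coding RNA alone was not measured with useful precision. TRAPPC4, on the opposite strand, overlaps it over 1704 bases and had 596 to 1259 counts per library.

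PPARGC1A (ENSG00000109819, minus strand, chr4:23755041-23904089) encodes the coactivator PGC-1alpha, which raises PCK1 and G6PC1 transcription in fasted liver. In ARID1B-KO it was at 39.1, 38.3 and 41.0 CPM with sorafenib, against 23.2, 25.4 and 24.2 CPM with DMSO. The WT libraries had 27.3, 24.99 and 25.03 CPM with sorafenib, against 23.2, 20.6 and 22.3 CPM with DMSO. The knockout sorafenib libraries stood above all others and close together, and the WT treatments were separated by a narrow gap. The rise was 0.70 ± 0.08 in ARID1B-KO (1.63-fold, adjusted p = 1.43e-05) and 0.23 ± 0.08 in WT (1.17-fold, adjusted p = 0.0420). With sorafenib ARID1B-KO was higher than WT by 0.61 ± 0.08 (1.53-fold, adjusted p = 0.000107), and with DMSO the genotypes overlapped (0.14 ± 0.08, adjusted p = 0.217). The WT call was lost without each of 6 libraries in turn (adjusted p = 0.0554 to 0.156): WT sorafenib replicates 1, 2 and 3, WT DMSO replicates 2 and 3 and ARID1B-KO sorafenib replicate 2. The length-corrected fit ended the WT call (0.13, adjusted p = 0.629) and that between genotypes with sorafenib (0.39, adjusted p = 0.143). Its full-length transcript PPARGC1A-201 took 95.2% to 98.6% of the counts in the ARID1B-KO libraries and 92.3% to 94.6% in the WT libraries. Its share of TPM, which weighs the few counts on short transcripts more, was 75.5% to 89.6% in ARID1B-KO and 52.1% to 80.5% in WT, so by that measure the genotypes overlapped.

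FOXO1 (ENSG00000150907, minus strand, chr13:40555667-40666641) is a transcription factor that insulin signalling keeps out of the nucleus and that acts on PCK1 and G6PC1 when insulin is low. It was at 10.02, 10.4 and 10.96 CPM with sorafenib in ARID1B-KO, against 21.7, 20.3 and 19.5 CPM with DMSO. The WT libraries had 13.9, 13.6 and 15.1 CPM with sorafenib, against 21.7, 22.2 and 26.9 CPM with DMSO. Its RNA was lower in every sorafenib library than in every DMSO library, the direction opposite to PCK1 and PPARGC1A. The fall was -0.97 ± 0.10 in ARID1B-KO (1.96-fold lower, adjusted p = 9.77e-06) and -0.73 ± 0.10 in WT (1.66-fold lower, adjusted p = 0.000125). With sorafenib ARID1B-KO was also below WT, by -0.44 ± 0.10 (adjusted p = 0.00749), a call that the length-corrected fit ended (-0.18, adjusted p = 0.482). With DMSO the highest knockout library lay just below the lowest WT library, with a difference of -0.20 ± 0.10 that did not pass (adjusted p = 0.156).

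The FOXO1 start is the second window shown, since 98.9% of FOXO1 TPM came from the transcript that starts there. It is the minus strand at chr13:40666642-40666891 (GRCh38.p14, RefSeq), 5′ to 3′, all in lower case because none of the 5 motifs was found in it.
FOXO1: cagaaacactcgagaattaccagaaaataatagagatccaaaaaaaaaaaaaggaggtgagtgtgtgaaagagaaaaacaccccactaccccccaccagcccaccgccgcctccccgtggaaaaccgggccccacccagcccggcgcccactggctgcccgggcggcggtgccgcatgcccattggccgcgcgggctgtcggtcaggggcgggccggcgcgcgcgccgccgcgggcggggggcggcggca
Promoter windows were available for 7 of the 9 genes, without PCK1 and TAT. That of PC at chr11:66958384-66958633 held TGACG at 3 positions (-186, -160 and -111), but transcripts starting there carried only 9.08% of PC TPM.

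TAT (ENSG00000198650, minus strand, chr16:71565660-71577092) starts the breakdown of tyrosine to fumarate and acetoacetate and is a standard glucocorticoid target in liver. With sorafenib its level went the other way from PC and PCK1. It was at 4.71, 5.18 and 7.80 CPM with sorafenib in ARID1B-KO, against 9.56, 7.23 and 8.13 CPM with DMSO. In WT it was at 2.30, 3.26 and 2.93 CPM with sorafenib, against 5.27, 4.73 and 4.83 CPM with DMSO. The WT treatments did not overlap, and in ARID1B-KO sorafenib replicate 3 lay among the DMSO libraries. TAT fell by 0.81 ± 0.21 in WT (1.75-fold lower, adjusted p = 0.00833), and in ARID1B-KO its change of -0.50 ± 0.20 did not pass (adjusted p = 0.0581). Without ARID1B-KO sorafenib replicate 3, that change was -0.75 and passed (adjusted p = 0.00625). TAT was higher in ARID1B-KO than in WT under both treatments, by 1.06 ± 0.21 with sorafenib (2.09-fold, adjusted p = 0.00229) and 0.75 ± 0.20 with DMSO (1.68-fold, adjusted p = 0.0145). The DMSO call was lost without ARID1B-KO DMSO replicate 1 (adjusted p = 0.0622) or WT DMSO replicate 2 (adjusted p = 0.0535). The antisense gene TAT-AS1 covers the whole of TAT and was not analysed here, and without strand its reads could not be told apart from those of TAT.

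The enzymes that act after TAT in tyrosine breakdown did not share its direction with sorafenib. All 4 of them (HPD, HGD, GSTZ1 and FAH) rose in both genotypes, where 23.0% of all tested genes rose in ARID1B-KO and 17.5% in WT. FAH, which makes the last cut to fumarate and acetoacetate, rose by 0.71 ± 0.10 in ARID1B-KO and 0.78 ± 0.10 in WT. HPD, the dioxygenase that acts on the product of TAT, was at 326, 349 and 362 CPM with sorafenib in ARID1B-KO, against 180.1, 197 and 191 CPM with DMSO. Its rise was 0.87 ± 0.09 in both genotypes (adjusted p = 7.87e-06 in ARID1B-KO and 1.32e-05 in WT). Between genotypes, HPD, HGD and FAH were higher in ARID1B-KO than in WT under both treatments, the direction of TAT, with HPD at 1.03 ± 0.09 with sorafenib and 1.03 ± 0.09 with DMSO.

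**Figure D5:**
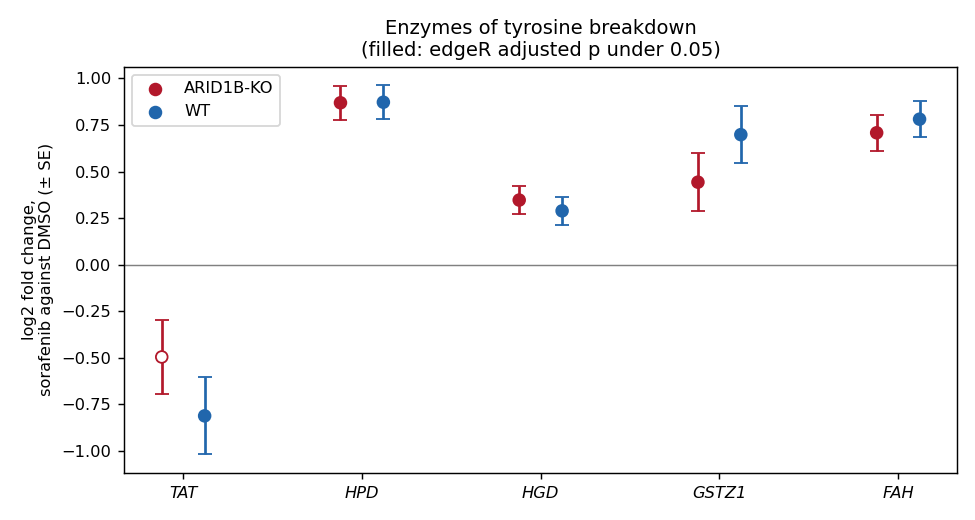
Log2 fold change with sorafenib against DMSO (vertical axis, ± SE) for 5 enzymes of tyrosine breakdown in pathway order, in ARID1B-KO and WT. TAT lies below 0 in both genotypes (-0.50 and -0.81), and the other 4 lie above 0.

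Whether the response to sorafenib differed between genotypes was tested as an interaction, the response in ARID1B-KO minus that in WT. None of the 8 genes passed in edgeR, where 0.835% of all tested genes (107) did. At an unadjusted p under 0.05 there were 2 of the 8 (and 1963 of all genes): G6PC1, with a difference in log2 response of 1.29 ± 0.32 (adjusted p = 0.0753), and PPARGC1A, with 0.48 ± 0.11 (adjusted p = 0.0616). DESeq2 called the same 2 genes (adjusted p = 0.0127 and 0.00416), and limma on TPM called 0 of the 8. For G6PC1, the adjusted p over the fits without a library was 0.0645 to 0.185, and for PPARGC1A it was 0.0836 to 0.152. The differences of the other 6 lay between -0.24 and 0.32, with adjusted p between 0.409 and 0.964.

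The genes around the 9 did not move as a block. Over all tested genes, 23.0% rose and 23.7% fell with sorafenib in ARID1B-KO, and 17.5% rose and 18.0% fell in WT. A list of 10 tested genes held G6PC3 and enzymes that run in both directions between glucose and pyruvate. Of the 10, 1 rose and 5 fell with sorafenib in ARID1B-KO, and 2 rose and 4 fell in WT. ENO1, enolase, fell by 0.76 ± 0.11 in ARID1B-KO and by 0.55 ± 0.11 in WT. A list of 11 tested genes held glycolytic enzymes that oppose gluconeogenesis and regulators of their steps, not all of which favour glycolysis. Of the 11, 4 rose and 3 fell in ARID1B-KO, and 3 rose and 2 fell in WT. HK2, the hexokinase of tumour cells, was at 6.61, 8.26 and 11.9 CPM with sorafenib in ARID1B-KO, against 104.5, 111 and 109.9 CPM with DMSO. WT cells had 25.3, 19.2 and 20.9 CPM of HK2 with sorafenib, against 125.5, 136 and 141 CPM with DMSO. It fell by 3.61 ± 0.17 in ARID1B-KO and by 2.62 ± 0.16 in WT. PKLR, the liver pyruvate kinase that PC and the carboxykinases bypass, rose by 0.73 ± 0.12 in ARID1B-KO and 1.02 ± 0.12 in WT. PKM, the other pyruvate kinase gene, was more abundant and went the other way. It averaged 272 TPM in ARID1B-KO and 445 TPM in WT with sorafenib, where PKLR averaged 7.65 and 6.23 TPM. PKM was at 347, 375 and 416 CPM with sorafenib in ARID1B-KO, against 591, 558 and 602 CPM with DMSO. WT cells had 443, 402 and 461 CPM of PKM with sorafenib, against 618, 583 and 638 CPM with DMSO. Between genotypes, 5 of the 11 were higher and 1 lower in ARID1B-KO with DMSO, and 3 higher and 1 lower with sorafenib. Of the 10, 1 was higher and 1 lower with DMSO, and 1 higher and 2 lower with sorafenib. The shares of all tested genes were 14.3% higher and 13.5% lower with DMSO, and 13.2% higher and 13.8% lower with sorafenib.

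Of 16 tested genes for substrate entry and glucose export, 2 rose and 9 fell with sorafenib in ARID1B-KO, and 4 rose and 6 fell in WT. The shares of all tested genes were 23.0% and 23.7% in ARID1B-KO, and 17.5% and 18.0% in WT. GPT, which turns alanine into pyruvate, rose by 1.82 ± 0.16 in ARID1B-KO and by 1.59 ± 0.16 in WT. GOT1, the aspartate aminotransferase that returns oxaloacetate carbon to the cytosol, fell by 0.76 ± 0.08 and 0.92 ± 0.08, MPC1, a subunit of the mitochondrial pyruvate carrier, by 1.28 ± 0.15 and 1.12 ± 0.15, and GK, the kinase that brings glycerol in, by 0.82 ± 0.11 and 0.93 ± 0.11. Between genotypes, 6 of the 16 were higher and 0 lower in ARID1B-KO with DMSO, and 4 higher and 1 lower with sorafenib. Of all tested genes, 14.3% were higher and 13.5% lower with DMSO, and 13.2% higher and 13.8% lower with sorafenib. AQP9, the glycerol channel of hepatocytes, had 595 counts over the ARID1B-KO sorafenib libraries and 1853 over the ARID1B-KO DMSO libraries, against 2 and 0 counts over the WT libraries with sorafenib and DMSO.

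Among 31 tested hormonal and transcriptional regulators other than PPARGC1A and FOXO1, 12 rose and 9 fell with sorafenib in ARID1B-KO, and 15 rose and 9 fell in WT. The shares of all tested genes were 23.0% and 23.7% in ARID1B-KO, and 17.5% and 18.0% in WT. NR0B2, the corepressor SHP that represses PCK1 and G6PC1 transcription, was at 9.18, 8.71 and 8.84 CPM with sorafenib in ARID1B-KO, against 42.7, 48.6 and 51.7 CPM with DMSO. In WT NR0B2 was at 14.1, 14.7 and 13.1 CPM with sorafenib, against 64.6, 65.7 and 61.0 CPM with DMSO. It fell by 2.42 ± 0.09 in ARID1B-KO and by 2.19 ± 0.09 in WT. In the same libraries PCK1 rose in both genotypes, whereas G6PC1 rose in ARID1B-KO and did not pass in WT (0.08, edgeR adjusted p = 0.824). A link between NR0B2 and these genes was not tested. FOXO4, a relative of FOXO1, rose by 1.27 ± 0.12 in ARID1B-KO and by 0.76 ± 0.11 in WT, where FOXO1 fell. PPRC1, a relative of PPARGC1A, fell by 1.20 ± 0.12 and 0.93 ± 0.12, where PPARGC1A rose. Between genotypes, 5 were higher and 7 lower in ARID1B-KO with sorafenib, and 5 higher and 5 lower with DMSO. Of all tested genes, 13.2% were higher and 13.8% lower with sorafenib, and 14.3% higher and 13.5% lower with DMSO.

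PCK1 and TAT varied most over the 12 libraries, with an SD of log2 CPM of 0.95 and 0.59, and SLC37A4 least at 0.17. The tested genes nearest to PCK1 in pattern, by the root mean square difference of centred log2 CPM over the 12 libraries, were ACSM1 (0.209), MTARC2 (0.220) and OSBP2 (0.232). They rose with sorafenib by 2.27 ± 0.23, 1.65 ± 0.13 and 1.71 ± 0.12 in ARID1B-KO and by 2.18 ± 0.23, 1.51 ± 0.13 and 1.76 ± 0.12 in WT. Those nearest to TAT were CNOT9 (0.181), ZNF443 (0.197) and NFE2L2 (0.215).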

How the data were processed

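RNA was measured in 12 HepG2 libraries, whose groups come from their titles. A Salmon table per library was deposited, per the file headers, with the estimated count, length, effective length and TPM of each transcript. The estimated counts deposited are not normalised and mostly not whole (10.2% of values above 0 were whole within 1e-06). The TPM deposited by the authors were summed per gene. Salmon, without a version, DESeq2 1.46.0 and GRCh38 are named per the submitters' processing notes. The design text names Ensembl 109. The sources used here do not give its strand or bias settings. Salmon divides reads that fit several transcripts, so transcript shares are estimates.

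Each table held 177456 transcripts. Of these, 165533 (93.3%) matched GENCODE 44 by unversioned identifier and were summed to 35810 genes, and the unmatched held 2.87% to 3.20% of a library's counts. Rounded counts were fitted with edgeR 4.0.16 (TMM, filterByExpr, robust quasi-likelihood, 4 group means over 12 libraries) in R 4.3.3. Genes were called at an adjusted p under 0.05. The SE was taken as the size of the log2 fold change over the root of its F statistic. The common biological coefficient of variation was 0.152. CPM are counts over the TMM library size. The edgeR fit was tested on simulated counts for sorafenib against DMSO in WT. The other comparisons and the alternatives were not tested in this way.

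Alternatives were DESeq2 size factors, DESeq2 1.42.0, no filter, a length offset, limma 3.58.1 on log2(TPM + 1), a replicate block and leaving out each library. Protein-coding transcripts alone were added after seeing the data. The 9 genes and the other lists were chosen with earlier results of these data known. The text names all 9 genes and ARID1B. Of each other list it draws on the 3 called genes with the smallest adjusted p per comparison. The other genes it names (FBP2, G6PC2, G6PC3, GSTZ1, PKM) were named after their values were seen. Likeness used the 2 members with the largest SD of log2 CPM (prior count 2). Promoter windows are from RefSeq. Some genes of the lists are not reported here.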

Additional observations from a re-analysis of the deposited data

Results flagged for a closer look

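The interaction test of edgeR, which sets the response to sorafenib in ARID1B-KO against that in WT, called 2 of the 92 tested genes of all the lists, the members included, and 107 of all 12821 genes (0.835%). CEBPA, a transcription factor that acts on PCK1 and other hepatocyte genes, was at 360.3, 351 and 343 CPM with sorafenib in ARID1B-KO, against 315, 292 and 296 CPM with DMSO. In WT it was at 272, 282 and 282 CPM with sorafenib, against 152, 146 and 148 CPM with DMSO. The rise was 0.22 ± 0.07 in ARID1B-KO and 0.91 ± 0.07 in WT, a difference of -0.68 ± 0.10 (log2, adjusted p = 0.0181). The call held with 7 of the 12 libraries left out in turn (adjusted p = 0.0223 to 0.0739 over the 12, log2 difference -0.70 to -0.63). It was lost without WT DMSO replicates 2 and 3, WT sorafenib replicates 2 and 3 and ARID1B-KO sorafenib replicate 2. Of 7 other alternatives, 5 kept it, and the length offset (adjusted p = 0.229) and limma on TPM (adjusted p = 0.296) did not.

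TXNIP, which lowers glucose uptake and responds to glucose and FOXO1, was at 37.3, 34.5 and 41.8 CPM with sorafenib in ARID1B-KO, against 40.7, 44.6 and 47.2 CPM with DMSO. In WT it was at 35.0, 27.6 and 29.8 CPM with sorafenib, against 61.0, 56.6 and 60.3 CPM with DMSO. The change was -0.22 ± 0.10 in ARID1B-KO, which did not pass (adjusted p = 0.0917), and -0.95 ± 0.10 in WT, a difference of 0.72 ± 0.15 (adjusted p = 0.0414). That call depended on the full set of libraries: it held with 1 of the 12 left out, WT sorafenib replicate 1, and was lost without each of the other 11 (adjusted p = 0.0466 to 0.116 over the 12, log2 difference 0.65 to 0.82). It also held under 3 of 7 other alternatives and was lost with the length offset, limma on TPM, the replicate block and protein-coding transcripts alone (adjusted p = 0.188, 0.351, 0.067 and 0.0671).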

How the results depend on the processing

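Over 760 member comparisons, one for each tested gene, comparison and alternative, 694 kept their direction and their side of the threshold, 28 lost the call, 6 gained one and 32 changed sign. All that changed sign were differences that did not pass the test. Depth limits FBP1, which did not pass the filter, and G6PC1 and TAT, at under 10 CPM in most libraries. With 3 libraries a group, small changes are measured with little precision.

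With the length offset, 3 of the 8 genes were called between genotypes with sorafenib (5 in the reported fit) and 1 with DMSO (2), and 2867, 2189, 2046 and 2 of all genes were called for sorafenib in WT, genotype with DMSO, genotype with sorafenib and the interaction, against 4543, 3563, 3463 and 107. With limma on TPM these counts were 2498, 1993, 1804 and 8, and 3 members were called for sorafenib in WT (6 in the reported fit), 1 for genotype with DMSO and 3 for genotype with sorafenib. limma on TPM also ended the fall of TAT in WT (-0.46, adjusted p = 0.0551). DESeq2 called 584 genes and 2 members for the interaction. Over protein-coding transcripts, 19 genes were called for it. DESeq2 and protein-coding transcripts called PCK2 higher in ARID1B-KO with sorafenib (adjusted p = 0.0281 and 0.0414). Without the filter, the rise of PPARGC1A in WT was not called (adjusted p = 0.0729).

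Signs changed as follows. For genotype with DMSO, PCK2 was at -0.00369 with DESeq2 size factors, -0.00361 with DESeq2, -0.000423 without the filter and -0.00966 over protein-coding transcripts, PPARGC1A at -0.24 with the length offset and -0.13 with limma, SLC37A4 at 0.15 over protein-coding transcripts and FOXO1 at 0.0465 with limma. For genotype with sorafenib, SLC37A4 was at -0.00867 with the length offset and -0.0148 with limma. For sorafenib, G6PC1 in WT was at -0.00171 with limma and SLC37A4 in ARID1B-KO at 0.68 over protein-coding transcripts. For the interaction, PCK1 was at -0.0134 with the length offset, -0.12 with limma and -0.0439 over protein-coding transcripts, and PC at 0.0118 over protein-coding transcripts. The cause was not tested.

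Leaving out each library in turn gave 4 to 6 called members for sorafenib in WT, 6 to 7 in ARID1B-KO, 1 to 2 for genotype with DMSO, 4 to 6 with sorafenib and 0 for the interaction, for which 5 to 138 genes were called. Ranges that crossed 0 were -0.005 to 0.16 for G6PC1 with sorafenib in WT. For genotype with DMSO they were -0.0892 to 0.20 for PCK1, -0.0726 to 0.0438 for PCK2 and -0.11 to 0.0783 for SLC37A4. For SLC37A4 they were -0.0965 to 0.14 for genotype with sorafenib and -0.0583 to 0.17 for the interaction, and for the interaction of PCK1 -0.0527 to 0.30 and of PC -0.13 to 0.0818.

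Replicate numbers did not clearly pair the libraries: the deviations of same-numbered libraries correlated at -0.163 to 0.184 and those of other pairs at -0.169 to 0.183. Between the treatments in WT, same-numbered pairs lay at 0.050 to 0.084 and other pairs at -0.079 to 0.008. In ARID1B-KO they lay at -0.021 to 0.184 and at -0.169 to 0.099. Weak pairing of the treatments cannot be told from so few pairs. With a replicate block, 5818, 4362, 3271, 3381 and 19 genes were called for sorafenib in ARID1B-KO, sorafenib in WT, genotype with sorafenib, genotype with DMSO and the interaction. The members called under the block numbered 6, 5, 5, 2 and 0, and PPARGC1A in WT was not called (adjusted p = 0.0602).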

Other observations

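Genes known to respond to FOXO1 or insulin outside gluconeogenesis moved in both directions with sorafenib. Of 11 tested, 8 rose and 2 fell with sorafenib in ARID1B-KO, and 5 rose and 3 fell in WT. The shares of all tested genes were 23.0% and 23.7% in ARID1B-KO, and 17.5% and 18.0% in WT. CCNG2, a cyclin of non-dividing cells, rose by 1.64 ± 0.12 in ARID1B-KO and by 1.13 ± 0.12 in WT. IRS1, the adaptor of the insulin receptor, rose by 0.90 ± 0.10 in ARID1B-KO and by 1.19 ± 0.10 in WT. IGFBP1, a secreted binding protein that insulin lowers in liver, was at 11.8, 10.2 and 19.2 CPM with sorafenib in ARID1B-KO, against 101.8, 100.7 and 90.7 CPM with DMSO. It fell by 2.83 ± 0.20 in ARID1B-KO and by 2.53 ± 0.19 in WT, and was lower in ARID1B-KO than in WT under both treatments (-1.29 ± 0.20 with sorafenib and -0.98 ± 0.18 with DMSO). SESN3, a stress-induced regulator of mTORC1, was higher in ARID1B-KO than in WT by 1.82 ± 0.14 with sorafenib and 1.43 ± 0.13 with DMSO. Of the 11, 5 were higher and 2 lower in ARID1B-KO with sorafenib, and 3 higher and 3 lower with DMSO. Of all tested genes, 13.2% were higher and 13.8% lower with sorafenib, and 14.3% higher and 13.5% lower with DMSO.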
